A study of Mus musculus with 26 samples.

Results

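Messenger RNA levels of 54 splicing factor genes were measured in mouse mammary tumors and tumor organoids after antisense knockdown of Malat1. The genes were chosen by name from the 37310 genes of the count tables: the SR proteins (Srsf1 to Srsf12, 11 genes), SR-related proteins and constituents of nuclear speckles (12 genes), the U2 particle and the factor that reads the 3′ splice site (Sf3a, Sf3b and U2af genes, 11 genes), and the hnRNPs (20 genes). The rule uses names, not levels. All 54 had a row in every table, and all 54 passed the filter on low counts in every fit.

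SR proteins carry a domain rich in arginine and serine, bind exonic enhancers and recruit the splicing machinery to weak sites. Many hnRNPs bind exonic or intronic silencers and oppose that recruitment. Both classes shape exon choice by their dose, and many of their genes limit their own RNA through exons that trigger decay. Nuclear speckles store SR proteins around a scaffold built on Son and Srrm2, and Malat1 is a long noncoding RNA that collects in these bodies and binds several SR proteins.

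Tissue came from C57BL/6 mice carrying MMTV-PyMT, a transgene in which a mammary-active viral promoter drives the polyoma middle T oncogene. All groups share this strain and transgene. Organoids, epithelial fragments of such tumors grown in Matrigel with FGF2, received no oligonucleotide named in the labels (Mock), a control oligonucleotide (scASO), Malat1 ASO1 or Malat1 ASO2 at 500 nM for 6 days, with 4 libraries in each group. Tumor-bearing mice received 125 mg/kg per week of ASO1 (3 tumors), ASO2 (4 tumors) or scASO (3 tumors). The ASOs pair with Malat1 RNA and mark it for cleavage by RNase H. The labels do not say which organoid cultures came from the same mouse, so p-values measure the spread between these libraries. Because each library holds RNA of many cells, fewer cells of a type and less RNA per cell cannot be told apart.

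Between 23973533 and 65146030 reads per library fell in genes in organoids, and between 9939520 and 51363552 in tumors. Malat1 itself stood at 88.0 to 182 CPM (reads scaled to a common library size) in ASO1 organoids, at 96.9 to 311 CPM in the ASO2 organoids numbered 2 to 4, at 792 to 1206 CPM in the scASO organoids numbered 1, 3 and 4, and at 725 to 1550 CPM in Mock organoids. It went against the label in 2 organoid libraries: the library labelled ASO2 replicate 1 had 1463 CPM and the library labelled scASO replicate 2 had 117 CPM. The tests of groups that hold either library were therefore also made without both, and the shares of variance given at the end include them. In tumors Malat1 stood at 417, 765 and 818 CPM with ASO1, at 365 to 917 CPM with ASO2 and at 851, 1597 and 1926 CPM with scASO, so that ASO2 and scASO tumors overlapped. Luminal epithelial markers were present in every library, with a summed level of 5454 to 9943 CPM in organoids and 4101 to 6191 CPM in tumors, and no marker of that list was at 0. The tumor labelled ASO2 replicate 1 also held 2389 CPM of skeletal muscle markers and 1182 CPM of adipocyte markers, against 32.1 to 121 CPM and 19.2 to 536 CPM in the other tumors.

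The levels of the members differed widely. Compared per kilobase of annotated exon, Hnrnpa2b1, a trafficking and splicing hnRNP, was the highest at 153 ± 40.6 CPM per kilobase (SD over 26 libraries). Srsf5 was the highest SR protein gene at 123 ± 40.6 CPM per kilobase, and Srsf12, a tissue-restricted SR protein, was the lowest of all members at 0.634 ± 0.176 CPM per kilobase. Srrm2 led the speckle genes at 89.5 ± 29.8 CPM per kilobase and Tra2b, a sequence-specific enhancer reader, closed them at 10.2 ± 2.14 CPM per kilobase. Among the genes of the 3′ splice site, Sf3b2 stood at 47.4 ± 8.21 and U2af1, the small subunit that contacts the terminal AG of the intron, at 7.27 ± 1.73 CPM per kilobase. The lowest hnRNP was Hnrnph3 at 2.96 ± 0.421 CPM per kilobase. Some neighbours in this order overlapped. Hnrnpab, Hnrnph1 and Srsf2, ranked 4, 5 and 6 at 88.8, 86.1 and 84.4 CPM per kilobase, differed by less than the SD of any of them.

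Hnrnpa1, often named as one of the most abundant hnRNPs, ranked only 46 of 54 at 12.6 ± 2.38 CPM per kilobase. Its coding sequence matched 5 processed pseudogenes over at least 100 bases at 98% identity or more, and reads that aligned in several places are a separate line of the tables, outside the gene counts. Hnrnpa3 matched 14 other genes, Hnrnpf 7 and Srsf3 2, and 10 members matched at least 1 gene at another locus. Among the 10 are Hnrnpc, Tra2b, Srsf5 and Srsf10, which are named in results below. Srsf5 matched 1 pseudogene over 810 of 810 coding bases and Srsf10 matched 1 over 769 of 786. Levels of these 10 genes may be understated, and the comparisons between groups share that limit. Exons of Srsf4 (43.0% of their length), Hnrnpab (29.1%), Hnrnpf (26.5%), Srsf2 (25.3%) and Luc7l2 (18.9%) overlap a gene on the other strand. Smaller shares do so in some other members. The labels do not say whether strand was used in counting.

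In tumors no member passed the test for Malat1 ASO treatment. With ASO1 and ASO2 as 1 group against scASO, 0 of 54 members had an adjusted p under 0.05 (edgeR quasi-likelihood test, Benjamini-Hochberg over 17354 genes), as had 0% of all genes. DESeq2 called 0 members as well, and 1 member had an unadjusted p under 0.05, where 5.86% of all genes did. The 95% interval of the fold change stayed within 2-fold either way for 54 of 54 members, against 58.8% of all genes, so that changes beyond 2-fold lie outside the interval of each member. The median log2 fold change was 0.11 over the members and 0.05 over all genes tested, and 39 of 54 members (72.2%) lay above 0, against 56.9% of all genes.

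The member with the smallest p in tumors was Srsf10, an SR protein that acts as a splicing repressor once dephosphorylated. It had 139, 199 and 176 CPM in ASO1 tumors and 215, 163, 184 and 167 CPM in ASO2 tumors, against 122, 134 and 141 CPM in scASO tumors. All ASO2 tumors lay above all scASO tumors, while 1 ASO1 tumor lay within their range. The log2 fold change was 0.45 ± 0.16 (SE, adjusted p = 0.83, edgeR). Sf3b6, which contacts the branch point adenosine, had 60.6, 90.3 and 63.7 CPM with ASO1 and 77.0, 71.6, 78.1 and 86.1 CPM with ASO2, against 62.2, 61.8 and 58.3 CPM with scASO. Its log2 fold change was 0.33 ± 0.15 (adjusted p = 0.83, edgeR). On the lower side stood Srrm2, the speckle scaffold, with 853, 799 and 758 CPM in ASO1 tumors and 966, 990, 814 and 539 CPM in ASO2 tumors, against 982, 984 and 1032 CPM in scASO tumors (log2 fold change -0.26 ± 0.20, adjusted p = 0.86, edgeR). Srsf4 followed at -0.17 ± 0.13.

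The other speckle scaffold, Son, which holds SR proteins in place and supports splicing of weak sites, averaged 548 ± 44.4 CPM with ASO1 (SD, n = 3) and 511 ± 101 CPM with ASO2 (SD, n = 4), against 532 ± 39.4 CPM with scASO (SD, n = 3). Its log2 fold change was 0.02 ± 0.17. Srsf1, the founding SR protein and an oncogene in mammary epithelium, averaged 355 ± 90.5 CPM with ASO1 and 354 ± 32.1 CPM with ASO2, against 295 ± 38.8 CPM with scASO, a log2 fold change of 0.30 ± 0.18. Srsf2, the speckle marker SC35, stood at 0.15 ± 0.22 and Hnrnpa1 at 0.34 ± 0.27 on the same scale. None of these differences exceeded the spread between tumors in the test (adjusted p = 0.84 to 0.99, edgeR).

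Taken singly, neither oligonucleotide gave a called member in tumors. ASO1 against scASO called 0 members, where 0.00576% of all genes were called, and ASO2 against scASO called 0 members, where 0% were. With ASO2, 3 members had an unadjusted p under 0.05 (5.14% of all genes did), and with ASO1 none had (8.45% of all genes did). DESeq2 called 0 members in both. Tra2a, an enhancer reader related to the SR proteins, had 311, 190, 202 and 171 CPM in ASO2 tumors, against 155, 109 and 170 CPM in scASO tumors, a log2 fold change of 0.64 ± 0.24 (adjusted p = 0.89, edgeR). The highest of these values is the tumor with muscle and adipocyte markers, and without it the log2 fold change was 0.41. That same tumor had the highest summed level of the 54 members, 17192 CPM against 11934 to 14861 CPM in the other 9, and the part of its muscle and adipocyte RNA in the result was not tested. In ASO1 tumors Hnrnpc, a nuclear RNA packaging protein, stood at 0.45 ± 0.22 and Hnrnpl at -0.20 ± 0.17. Without ASO1 replicate 2, which had 374 CPM of Hnrnpc against 248 and 215 CPM in the other ASO1 tumors, Hnrnpc was at 0.15. In ASO2 tumors Hnrnpul1 stood at -0.22 ± 0.19, and at -0.07 without the tumor with muscle and adipocyte markers. The proliferation markers moved beside these values: 20 of 20 lay above 0 in tumors given either ASO, with a median log2 fold change of 0.71 and summed levels of 858 to 2398 CPM, against 802 to 991 CPM in scASO tumors. None of the 20 passed the test.

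**Figure D1:**
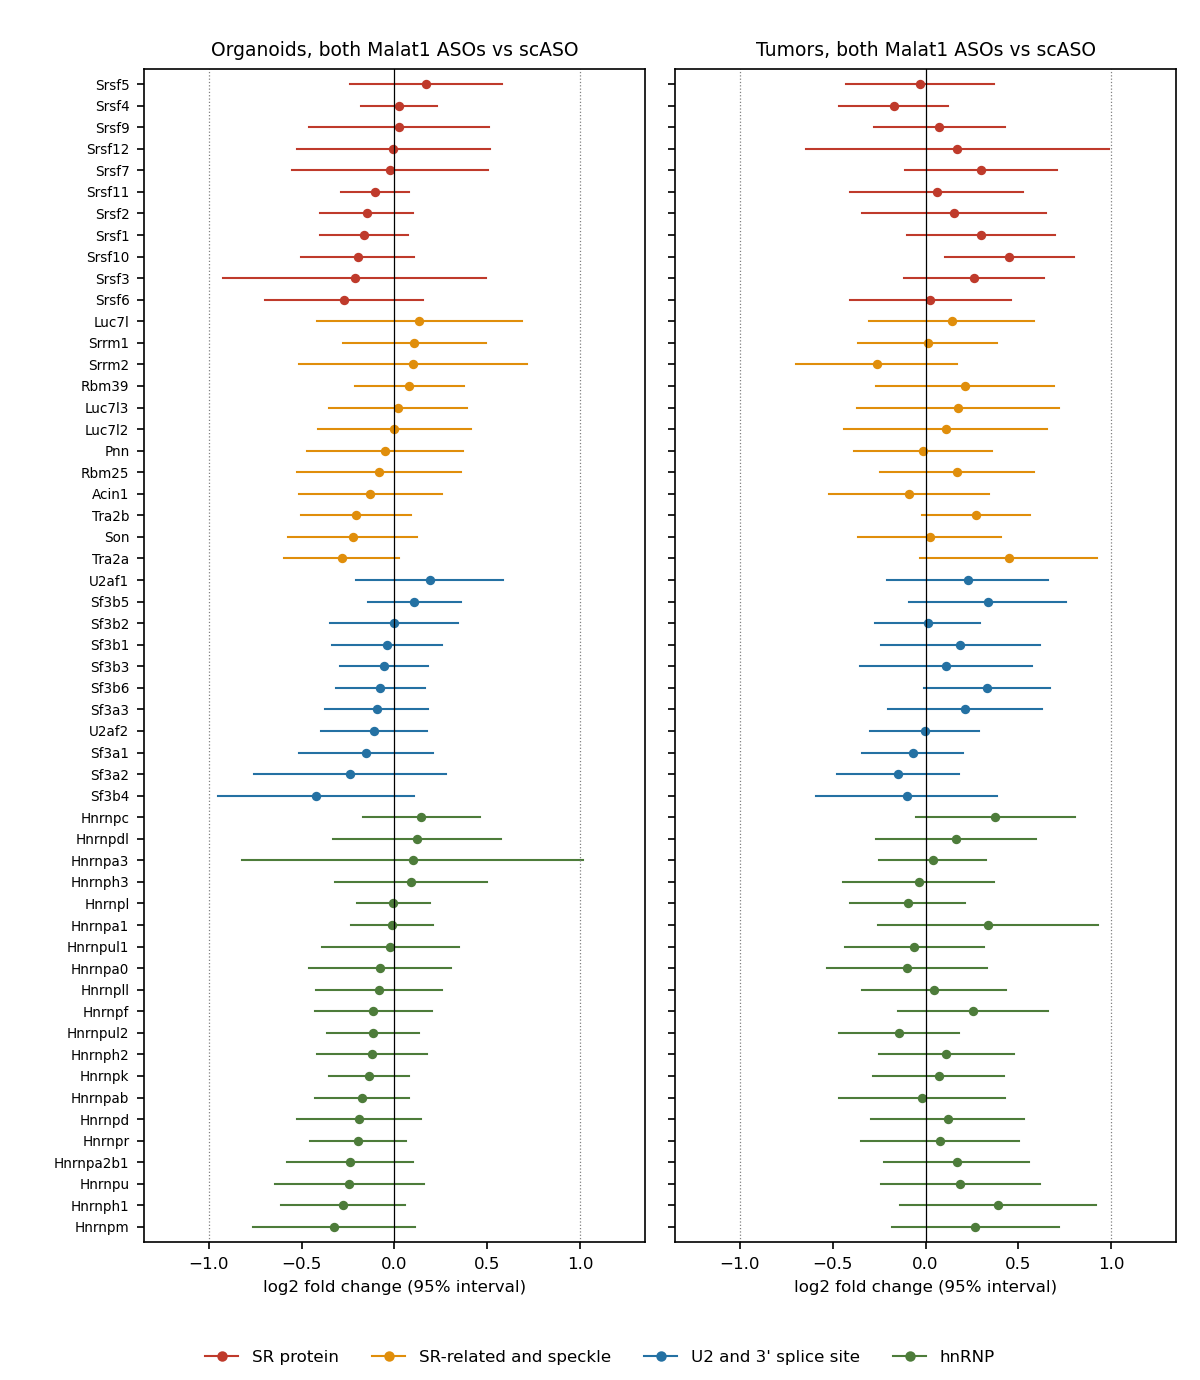
Log2 fold change (x axis) of each of the 54 members (rows, coloured by role) for both Malat1 ASOs against scASO in organoids (left) and tumors (right). Points are edgeR estimates and bars 95% intervals; dotted lines mark 2-fold. In organoids 14 of 54 points and in tumors 39 of 54 points lie above 0, and 0 of 54 members passed the test in either.

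In organoids, too, no member passed the test against scASO. Both ASOs together called 0 of 54 members, where 0% of all 17126 genes were called. No member had an unadjusted p under 0.05, where 1.06% of all genes had, and DESeq2 called 0 members. The single comparisons called 0 members each, for ASO1 and for ASO2, where 0% of all genes were called, with no member at an unadjusted p under 0.05 (0.257% and 1.68% of all genes). The 95% interval stayed within 2-fold for 53 of 54 members. Hnrnpa3 was the exception, with an interval from -0.82 to 1.01 on the log2 scale. The median log2 fold change was -0.08 over the members and 0.01 over all genes, and 14 of 54 members (25.9%) lay above 0, against 52.2% of all genes.

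Tra2a had the smallest p on the lower side. It had 166, 121, 162 and 135 CPM in ASO1 organoids and 121, 125, 157 and 125 CPM in ASO2 organoids, against 184, 172, 178 and 140 CPM in scASO organoids. The groups overlapped, since the scASO organoid numbered 4 lay below 3 of the 8 ASO organoids. The log2 fold change was -0.29 ± 0.15 (adjusted p = 1.00, edgeR). Hnrnph1, which binds runs of guanine, followed with 493, 331, 374 and 356 CPM in ASO1 organoids and 378, 339.5, 366 and 340.4 CPM in ASO2 organoids, against 545, 469, 422 and 355 CPM in scASO organoids, a log2 fold change of -0.28 ± 0.16. On the higher side, U2af1 stood at 0.19 ± 0.19 and Hnrnpc at 0.14 ± 0.15. The proliferation markers lay below 0 in 20 of 20 cases (median log2 fold change -0.39, none called), with summed levels of 753 to 2074 CPM in ASO organoids, against 1357 to 2040 CPM in scASO organoids.

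Srsf1, Srsf2, Son and Srrm2 had log2 fold changes of -0.16 ± 0.11, -0.15 ± 0.12, -0.23 ± 0.16 and 0.10 ± 0.29 in organoids given either ASO, and Hnrnpa1 one of -0.01 ± 0.10. With ASO1 alone, Hnrnpab stood at -0.19 ± 0.14 and Hnrnpr at -0.17 ± 0.14. With ASO2 alone, Rbm39, a U2AF-related factor of the 3′ splice site, stood at 0.16 ± 0.16, and at -0.02 without both libraries that go against their labels. Fitting the replicate number as a block left 0 members called in each of these comparisons, where 0% of all genes were called. For both ASOs, 12 members had an unadjusted p under 0.05 in that fit, where 18.4% of all genes did. The smallest adjusted p for both ASOs was 0.19, for Hnrnpr (-0.19 ± 0.05) and Srsf10 (-0.21 ± 0.06), and for ASO2 alone 0.14, for Srsf1 (-0.23 ± 0.06, edgeR). Fits with the block and all libraries took the numbers as labelled. Whether both libraries that go against their labels belong to their numbers was not tested. Hnrnpm, chosen by its values, had 398 CPM in the library labelled scASO replicate 2 and 236 CPM in ASO2 replicate 1. The other organoids numbered 1 had 380 to 413 CPM, and those numbered 2 had 206 to 230 CPM. Without both libraries that go against their labels, 0 members were called as well. With the block this held too, where 0.0231% of all genes were called for both ASOs.

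**Figure D2:**
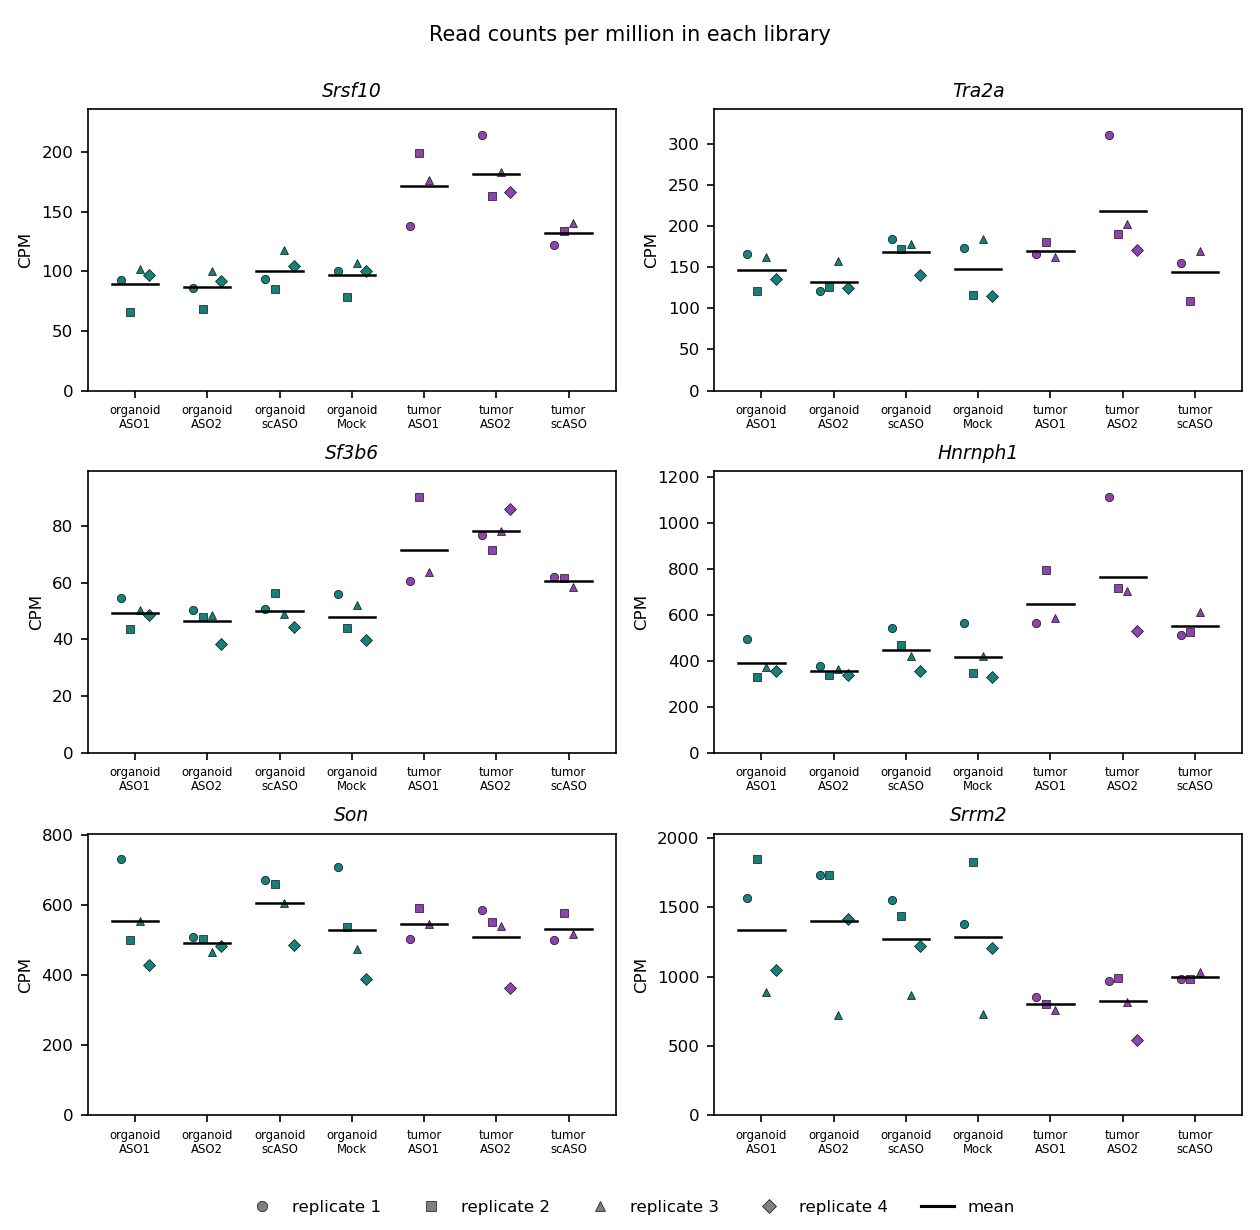
CPM (y axis, from 0) of 6 members in each library, with organoid groups left and tumor groups right; symbols mark replicate numbers and bars group means. Srsf10 lies at 66.3 to 118 CPM in all organoids and at 122 to 215 CPM in all tumors, and the tumor ASO2 replicate 1 is the highest tumor library for Srsf10, Tra2a and Hnrnph1.

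Against Mock organoids, which share their ASO libraries with the comparison above, 6 members were lower in 1 setting and none in the others. Of the 6, 5 are SR-related or speckle genes. That setting had the replicate block and left out both libraries that go against their labels. Without a block, 0 of 54 members were called, as were 0% of all genes; DESeq2 called 0 members, and 1 member had an unadjusted p under 0.05 (2.73% of all genes). That member was Srsf11, an SR-related protein that works at the 3′ splice site. It had 219, 199.5, 224 and 222 CPM in ASO1 organoids and 226, 189, 192 and 200 CPM in ASO2 organoids, against 244, 234, 243 and 236 CPM in Mock organoids. All 8 ASO libraries lay below all 4 Mock libraries. The highest of the 8 is the library labelled ASO2 replicate 1, whose Malat1 level goes against its label. How many of all genes separate these groups in the same way was not counted. The log2 fold change was -0.21 ± 0.09 (adjusted p = 1.00, edgeR). In the scASO organoids Srsf11 had 234, 199, 236 and 221 CPM, which overlapped both.

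With the replicate number, as labelled, as a block, Srsf11 was at -0.22 ± 0.06 (adjusted p = 0.052, edgeR). In that fit 0 of 54 members were called, where 4.31% of all genes were. Without both libraries that go against their labels and with no block, 0 members were called, where 0.00577% of all genes were. With the block and without both libraries that go against their labels, 6 of 54 members were lower and 0 higher, where 4.35% of all genes were called lower and 5.52% higher. The 6 were Luc7l, Luc7l2 and Luc7l3, which belong to the family of the yeast U1 particle protein Luc7 and act at the 5′ splice site, with Srsf11, Rbm39 and Pnn, the last a speckle and desmosome protein. Their log2 fold changes were -0.32 ± 0.07 for Luc7l, -0.34 ± 0.08 for Luc7l2, -0.28 ± 0.07 for Luc7l3, -0.24 ± 0.05 for Srsf11, -0.25 ± 0.06 for Rbm39 and -0.22 ± 0.06 for Pnn, with adjusted p from 0.0097 to 0.032 (edgeR). Of the settings run, only that one gave these calls, and only that one had the block and left out both libraries. The median standard error of the members was 0.065 there, and 0.161 with all libraries and no block. The 5 members other than Srsf11 are named here because of these calls. In the same setting scASO organoids, which carry no Malat1 ASO, also lay below Mock for all 6, by -0.19 ± 0.08 for Luc7l, -0.10 ± 0.10 for Luc7l2, -0.05 ± 0.08 for Luc7l3, -0.08 ± 0.06 for Srsf11, -0.14 ± 0.08 for Rbm39 and -0.04 ± 0.07 for Pnn on the log2 scale. None of these passed the test, and 0 members were called for both ASOs against scASO in that setting. Which part of the difference from Mock goes with Malat1 and which with any oligonucleotide was not tested.

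Set side by side within a replicate number, most ASO libraries lay below the Mock library. Luc7l2 had 248, 261, 256 and 313 CPM in ASO1 organoids and 264, 208 and 324 CPM in the ASO2 organoids numbered 2, 3 and 4, against 244, 367, 281 and 422 CPM in the Mock organoids numbered 1 to 4. Within each of the numbers 2, 3 and 4 the ASO organoids lay below the Mock organoid, and at number 1 the ASO1 organoid lay above it. The library labelled ASO2 replicate 1, left out there, had 356 CPM, and the scASO organoids had 237, 209.5, 293 and 365 CPM, the second of them being the library that goes against its label. Rbm39 had 276, 318, 310 and 345 CPM with ASO1 and 346, 286 and 357 CPM with ASO2 (numbers 2, 3 and 4), against 313, 398, 335 and 432 CPM in Mock organoids, and each of these ASO libraries lay below the Mock library of its number. The ASO2 library left out had 401 CPM of Rbm39. In the scASO organoids Rbm39 had 282, 252, 338 and 365 CPM, below the Mock library at the numbers 1, 2 and 4 and above it at number 3. The same holds for the scASO values of Luc7l2. Across 12 SR-related and speckle genes 5 were called in that setting, across 11 SR proteins 1, and across 20 hnRNPs and 11 genes of the 3′ splice site 0.

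The control oligonucleotide was compared with Mock in the same way. Without a block it called 0 of 54 members, where 0% of all genes were called. With the replicate number as a block it called 0 members, where 0.747% of all genes were called. With the block and without both libraries that go against their labels it called 0 members, where 1.78% of all genes were. DESeq2 called 0. In the edgeR fit without a block, 1 member, Hnrnpab, had an unadjusted p under 0.05 (1.59% of all genes). Hnrnpab, a transcription and splicing regulator, had 252, 381, 291 and 271 CPM in scASO organoids, against 252, 214, 278 and 197 CPM in Mock organoids, a log2 fold change of 0.34 ± 0.14 (adjusted p = 1.00, edgeR). The highest of these values is the library labelled scASO replicate 2, and without both libraries that go against their labels the log2 fold change was 0.21. Rbm39 and U2af1 stood at -0.26 ± 0.16 and -0.29 ± 0.21, and Sf3a1 at 0.27 ± 0.20.

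The difference between the organoid and the tumor response was tested as an interaction. The call count was 0 of 54 members, where 0% of 18695 genes were called, and DESeq2 called 0. The median difference was -0.15 over the members and -0.01 over all genes, with 12 of 54 members (22.2%) above 0. An unadjusted p under 0.05 was found for 5 members, against 4.45% of all genes. They were Srsf10 at -0.63 ± 0.20, Tra2a at -0.71 ± 0.25, Hnrnph1 at -0.65 ± 0.28, Tra2b at -0.46 ± 0.20 and Srsf1 at -0.44 ± 0.21 (adjusted p = 1.00 each, edgeR). For each of the 5 the log2 fold change of both ASOs against scASO was negative in organoids and positive in tumors. With the replicate block the smallest adjusted p was that of Srsf10, 0.064 (edgeR), and 0 of 54 members were called, where 0.305% of all genes were, 0.0481% lower. Without the tumor that held muscle and adipocyte markers the difference was -0.57 for Srsf10 and -0.59 for Tra2a. Proliferation markers differed in the same direction, with 0 of 20 above 0 and a median of -1.08, and their part in the result was not tested.

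The clearest contrast among these genes lay between organoids and tumors themselves. Of the 11 SR protein genes 5 were lower in organoids, while of the 20 hnRNP genes 1 was higher and 0 lower. In organoids given scASO against tumors given scASO, 9 of 54 members were called, 3 higher and 6 lower, where 23.5% of all genes were called, 11.4% higher and 12.1% lower (edgeR). The share over all members is thus below that of all genes, and 19 members had an unadjusted p under 0.05, where 37% of all genes did. The estimates of all 11 SR proteins were below 0, with a median log2 fold change of -0.54, against -0.0006 over all genes tested. The hnRNPs had a median of 0.23 with scASO, and of -0.014 and 0.003 in the ASO1 and ASO2 libraries described below. Of the 11 genes of the 3′ splice site 2 were called higher, and of the 12 speckle genes 1 was called lower.

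Srsf5, whose RNA responds to hormones and growth factors, had the smallest p. It had 368, 317, 278 and 433 CPM in scASO organoids, against 659, 676 and 653 CPM in scASO tumors, and the groups did not overlap. The log2 fold change was -0.91 ± 0.22 (adjusted p = 0.0046, edgeR). Srsf11 followed with 234, 199, 236 and 221 CPM in organoids, against 299, 333 and 373 CPM in tumors (-0.57 ± 0.16, adjusted p = 0.014, edgeR). Srsf6, a regulator of exon choice in epithelium, had 226, 219, 284 and 208 CPM in organoids, against 357, 395 and 468 CPM in tumors (-0.78 ± 0.23, adjusted p = 0.020, edgeR). Srsf4, also an SR protein of the classical set, had 20.7, 21.7, 19.6 and 18.9 CPM in organoids, against 26.6, 28.4 and 25.3 CPM in tumors (-0.38 ± 0.12, adjusted p = 0.024, edgeR).

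Srsf2 had 218, 214, 201 and 195 CPM in scASO organoids, against 300, 262 and 351 CPM in scASO tumors (log2 fold change -0.54 ± 0.19, adjusted p = 0.044, edgeR). Luc7l3 was the called speckle gene, with 165, 127, 121 and 144 CPM in organoids, against 261, 205 and 241 CPM in tumors (-0.74 ± 0.25, adjusted p = 0.034, edgeR). The 3 higher members were Hnrnpul1 (0.72 ± 0.23), Sf3a1 (0.55 ± 0.19) and Sf3b3 (0.54 ± 0.20). Hnrnpul1, a relative of the nuclear scaffold protein hnRNP U, had 392, 389.5, 278 and 240.2 CPM in organoids, against 199.8, 212 and 188 CPM in tumors. Srrm2 (0.37 ± 0.33), Hnrnpa1 (0.46 ± 0.22), Son (0.21 ± 0.21) and Srsf1 (-0.11 ± 0.17) did not pass the test.

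The calls differ in how far they hold in other fits. These were 26 fits that leave out 1 library each and 10 other settings. Some of the 10 put ASO1 or ASO2 libraries in place of scASO, as described below. Srsf5 and Srsf11 lost the call in 1 fit each, Srsf6 in 3 and Hnrnpul1 in 6. The 1 loss of Srsf5 was with the ASO1 libraries (adjusted p = 0.095, edgeR). Srsf4 lost it in 11, Srsf2 in 12, Sf3a1 in 13 and Sf3b3 in 20. The count of 9 fell to 2 without tumor scASO replicate 2 or without tumor scASO replicate 3 (14.2% and 13.7% of all genes called), to 3 without tumor scASO replicate 1 (17.2%), to 4 without the library labelled organoid scASO replicate 2 (17.5%) and to 5 without organoid scASO replicate 1 (17.8%).

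The same difference was then read between the ASO1 and between the ASO2 libraries, in the same fit of all 26 libraries. Organoid libraries with the same replicate number are paired across treatments, so these comparisons are not independent of the one with scASO. In ASO1 organoids against ASO1 tumors, 14 of 54 members were called, where 24.5% of all genes were, and in ASO2 organoids against ASO2 tumors 21 of 54, where 40.4% were. SR proteins made up 6 of 12 lower calls with ASO1 and 8 of 17 with ASO2, and 0 of 11 estimates was above 0 in either, with medians of -0.50 and -0.97. The 20 hnRNPs had medians of -0.014 with ASO1 (1 called higher, 2 lower) and 0.003 with ASO2 (2 higher, 3 lower). The ASO2 comparison holds the tumor with muscle and adipocyte markers, whose SR protein sum was 4089 CPM against 2613 to 2945 CPM in the other ASO2 tumors, and the organoid library labelled ASO2 replicate 1, whose Malat1 level goes against its label. Without that tumor 18 members were called, where 32.1% of all genes were, and the SR protein median was -0.70 with 8 lower and 1 of 11 above 0. Without both libraries that go against their labels 18 were called, where 32.8% of all genes were, and the SR protein median was -0.94 with 8 lower. Over all genes 13% and 20.9% were called lower, 11.5% and 19.6% higher. Srsf11, Srsf6 and Luc7l3 were called lower and Hnrnpul1 higher in all 3 comparisons, while Srsf5, Srsf2 and Sf3b3 missed the call with ASO1 (-0.50 ± 0.22, -0.50 ± 0.19 and 0.30 ± 0.19), Sf3a1 missed it with ASO2 (0.34 ± 0.18) and Srsf4 missed it with both (-0.23 and -0.11). The difference between comparisons was not tested for single genes. Srsf3, a small SR protein that also serves in RNA export, was at -1.09 ± 0.34 with ASO1 and -1.48 ± 0.32 with ASO2, and at -0.83 ± 0.34 with scASO, where it missed the threshold (adjusted p = 0.078, edgeR). Hnrnph1 and Hnrnpa2b1 were lower with ASO1 (-0.73 ± 0.23 and -0.53 ± 0.18) and with ASO2 (-1.11 ± 0.22 and -0.94 ± 0.17), and were not called with scASO.

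Over all 26 libraries, the 16 organoids lay wholly below the 10 tumors for 6 members and wholly above for 1, Hnrnpul1. Across all genes 5.63% lay wholly below and 5.3% wholly above. The 6 are Srsf2, Srsf3, Srsf7, Srsf10, Srsf11 and Sf3b6, and the same 6 and Hnrnpul1 lay apart without both libraries that go against their labels, where 5.72% of all genes lay below and 5.34% above. Srsf11 ranged from 189 to 244 CPM (median 223) in organoids and from 282 to 578 CPM (median 314) in tumors. Srsf3 ranged from 61.8 to 180 CPM (median 116) in organoids and from 210 to 366 CPM (median 244) in tumors. Srsf7, which shares its export role with Srsf3, ranged from 71.3 to 143 CPM (median 106) in organoids and from 144 to 286 CPM (median 180) in tumors. The summed level of the 11 SR protein genes was 1426 to 1864 CPM in organoids and 2325 to 4089 CPM in tumors, also without overlap, while the sum of the 20 hnRNP genes was 4656 to 6133 CPM in organoids and 4761 to 6566 CPM in tumors.

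**Figure D3:**
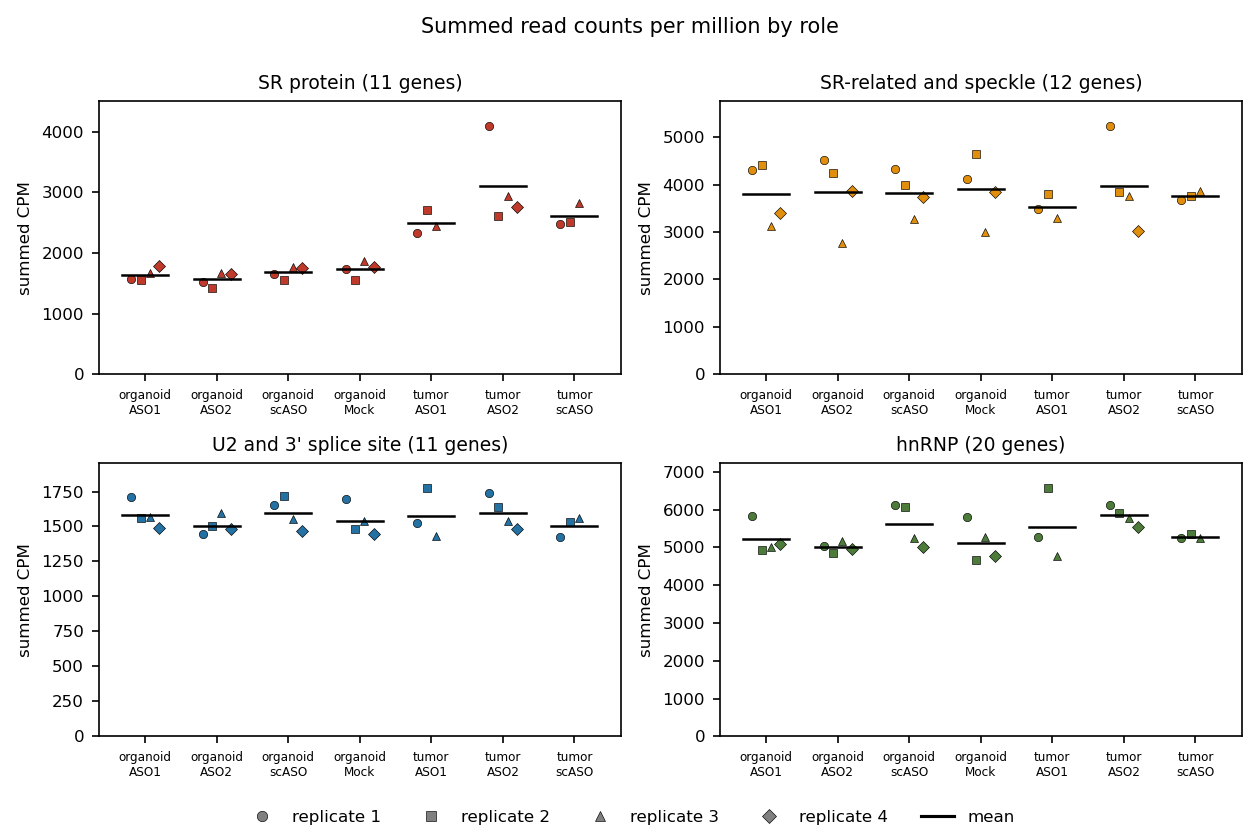
Summed CPM (y axis, from 0) of the members of each role in every library; organoid groups stand left of tumor groups, symbols mark replicate numbers and bars group means. The 11 SR protein genes sum to 1426 to 1864 CPM in organoids and 2325 to 4089 CPM in tumors, while the sums of the other roles overlap.

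**Figure D4:**
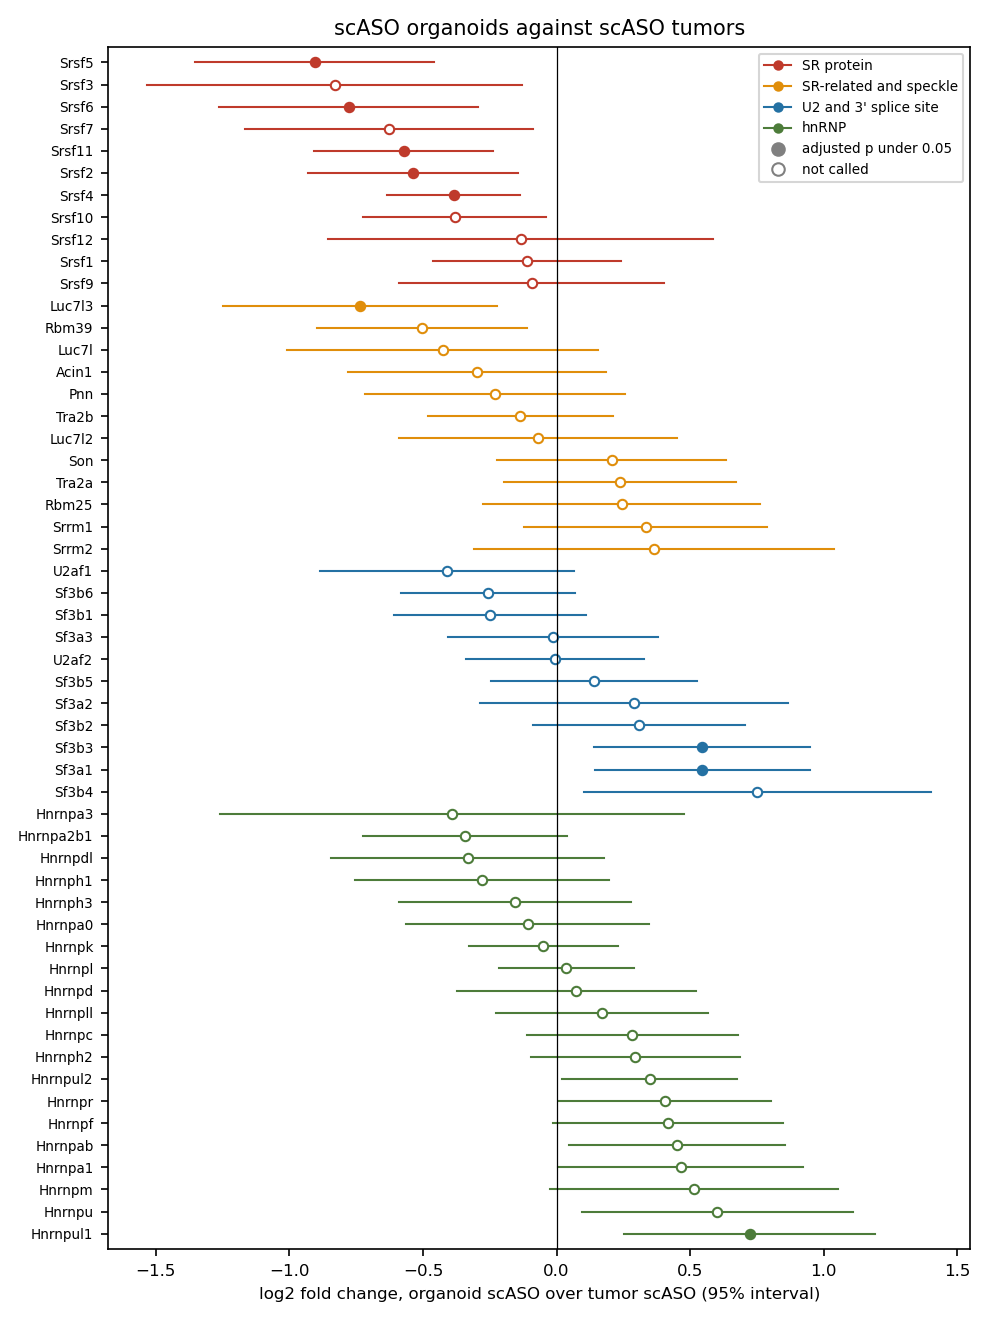
Log2 fold change of scASO organoids over scASO tumors (x axis) for the 54 members, coloured by role, with 95% intervals. Filled points have an adjusted p under 0.05: 6 are lower and 3 higher in organoids, and all 11 SR proteins lie below 0.

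Many other things differ between these sample types, and they stand beside this result without a test of their part in it. Endothelial markers were called lower in organoids for 8 of 10 genes, with summed levels of 8.72 to 32.5 CPM in all organoids and 43.1 to 201 CPM in all tumors. Macrophage markers were called lower for 6 of 10, at 237 to 562 CPM and 452 to 1346 CPM, and lymphocyte markers for 6 of 8 tested, at 0.628 to 6.08 CPM and 15.7 to 62.7 CPM. Basal and myoepithelial markers were called higher in organoids for 4 of 8 genes, at 1882 to 9368 CPM in organoids and 345 to 3673 CPM in tumors. Fibroblast markers were called higher for 1 and lower for 4 of 10, at 130 to 684 CPM and 457 to 2992 CPM. In scASO organoids 5 of the 10 lymphocyte markers were at 0. Proliferation markers were higher in 19 of 20 cases by estimate and called in 5, with a median log2 fold change of 0.77. Reads outside annotated genes amounted to 8.34 to 14.6% of gene reads in organoids and 11.1 to 24.5% in tumors. Without both libraries that go against their labels, 3 members were called, all lower, namely Srsf5, Srsf4 and Srsf11, where 16.6% of all genes were called, 8.5% lower, and 0 of 11 SR protein estimates was above 0.

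Promoter sequence is shown for 3 of the SR protein genes whose organoid and tumor libraries did not overlap. The 250 bases before the RefSeq start are printed along the gene's strand (GRCm38.p6): Srsf2 at chr11:116853095-116853344 on the minus strand, Srsf3 at chr17:29032410-29032659 on the plus strand and Srsf7 at chr17:80207306-80207555 on the minus strand. Capitals mark CCAAT boxes (CCAAT on either strand), TATA boxes (TATAAA) and the ETS core (CCGGAAG).
Srsf2: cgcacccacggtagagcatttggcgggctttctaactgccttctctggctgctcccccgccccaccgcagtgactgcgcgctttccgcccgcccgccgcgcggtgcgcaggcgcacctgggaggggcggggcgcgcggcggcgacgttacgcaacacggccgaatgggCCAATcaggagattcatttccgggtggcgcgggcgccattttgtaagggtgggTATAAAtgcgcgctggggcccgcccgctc
Srsf3: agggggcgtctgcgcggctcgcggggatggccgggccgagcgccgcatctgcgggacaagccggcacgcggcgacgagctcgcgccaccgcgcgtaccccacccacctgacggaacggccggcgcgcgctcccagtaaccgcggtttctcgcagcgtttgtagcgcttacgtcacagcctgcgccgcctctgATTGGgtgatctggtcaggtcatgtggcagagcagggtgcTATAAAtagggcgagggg
Srsf7: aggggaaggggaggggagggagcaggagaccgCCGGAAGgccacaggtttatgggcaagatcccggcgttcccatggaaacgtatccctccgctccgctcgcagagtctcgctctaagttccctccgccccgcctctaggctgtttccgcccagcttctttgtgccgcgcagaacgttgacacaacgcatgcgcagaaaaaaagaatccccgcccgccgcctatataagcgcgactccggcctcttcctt

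Srsf2 and Srsf3 each had a CCAAT box followed by TATAAA, at -82 and -29 from the start in Srsf2 and at -58 and -18 in Srsf3. Srsf7 had an ETS core at -218 and neither of those motifs in these letters. Srsf10 and Srsf11, also without overlap but not printed, had a CCAAT box at -129 and an ETS core at -104. Neither of them had TATAAA. A promoter was matched for 48 of the 54 members. Their median GC content was 61.6% and their median CpG count 22.5, against 52.0% and 5 over 27025 promoters of the same length. The ETS core (CCGGAAG, both strands) was in 29.2% of the members' promoters and in 7.1% of all, and the GC box (GGGCGG, both strands) in 66.7% and 32.7%. The CCAAT box stood in 45.8% against 34.2%, and TATAAA in 10.4% against 12.9%. These are matches of letters in a window, and nothing about binding was measured. The 27025 promoters were not limited to genes that passed the filter on low counts, as all members did. They were not matched to the members by level, GC content, CpG count or the choice of start. Whether the differences in motif shares go with splicing factors or with these traits was not tested.

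Among the organoids, the replicate number accounted for more of the variance of these genes than the treatment did. Of the variance of log2 CPM over 16 organoid libraries, the median member had 64.6% between numbers and 11.8% between treatments, against 70.5% and 8.42% over all genes tested. In 36 of 54 members (66.7%) the number held over 50%, against 75.8% of all genes. Rbm25, a U1-associated regulator of exon inclusion, had 95.3% between numbers, with means of 280, 256, 160 and 223 CPM for the numbers 1 to 4. Sf3b2, a subunit of the branch point complex, had 94.8%, with means of 410, 396, 299 and 290 CPM. Srsf7 had 93.4%, with means of 80.2, 79.5, 133 and 129 CPM, so that the numbers 3 and 4 lay above the numbers 1 and 2 in all treatments.

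Hnrnpa3, the member with the most near-identical copies, had 101 CPM on average in the organoids numbered 4 and 36.7, 38.7 and 45.1 CPM in the numbers 1, 2 and 3. Srrm2 averaged 803 CPM in number 3, against 1557, 1710 and 1222 CPM in the numbers 1, 2 and 4. Son had 57.6% of its variance between numbers and 18.0% between treatments. Srsf11 was the 1 of 54 members with over 50% between treatments, 57.0%, where 144 of 17126 genes tested had that. Srsf4 had little between numbers or between treatments, 5.01% and 10.6%. What the number stands for is not given in the labels.

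**Figure D5:**
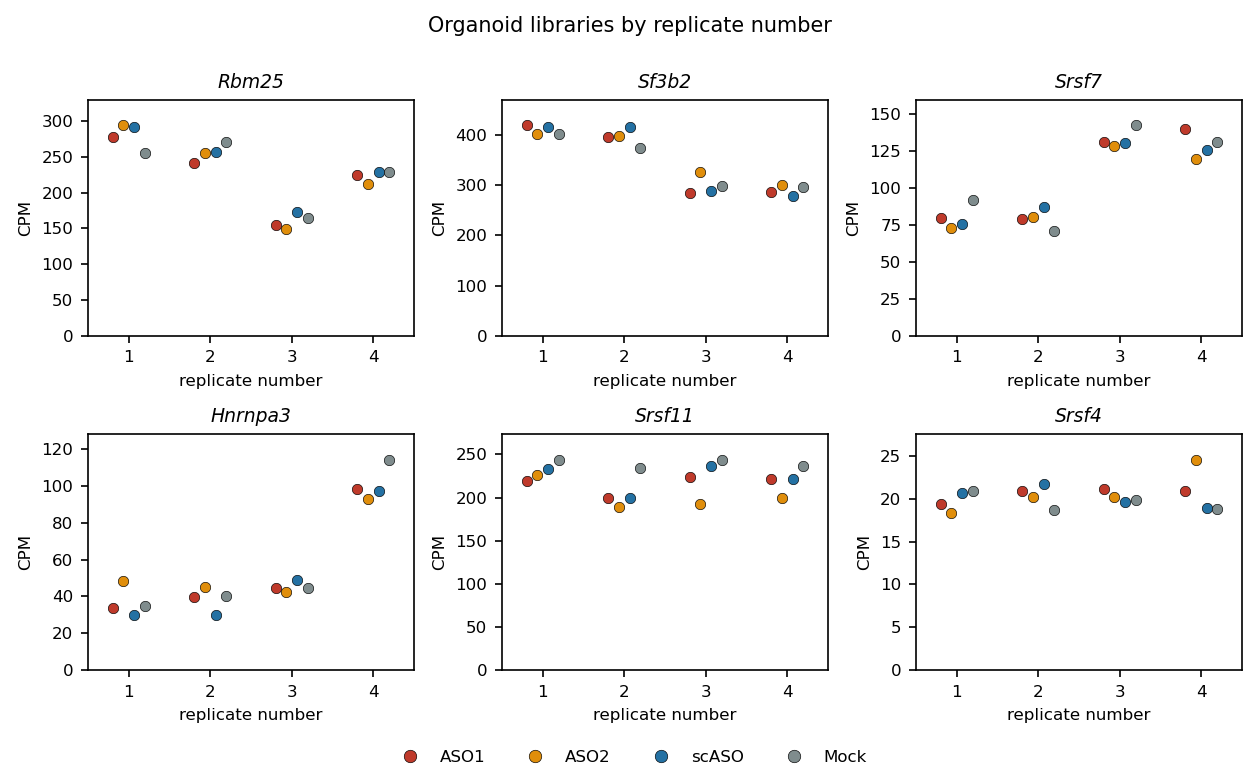
CPM (y axis, from 0) of 6 members in the 16 organoid libraries, by replicate number (x axis) and treatment (colour, ordered ASO1, ASO2, scASO and Mock within a number). Srsf7 is higher in the numbers 3 and 4 and Sf3b2 in the numbers 1 and 2, Rbm25 is lowest in number 3 and Hnrnpa3 highest in number 4. Srsf11 separates the Mock libraries (234 to 244 CPM) from the 8 ASO libraries (189 to 226 CPM). The highest of these 8 is the library labelled ASO2 replicate 1, whose Malat1 level goes against its label.

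The rest of the splicing machinery gave a frame for these values. Of the other proteins of the U1 and U2 particles and the Sm ring (17 genes), of the U4, U6 and U5 particles, of the catalytic core and second step (15 genes), of speckles and exon junctions (20 genes) and of further regulators of exon choice (25 genes), 0 were called in either system for both ASOs against scASO. In tumors their medians lay between 0.05 and 0.21, and in organoids between -0.11 and -0.0046. In scASO organoids against scASO tumors, where 11.4% of all genes were called higher and 12.1% lower, the U5 proteins Prpf8 and Snrnp200 were higher (0.86 ± 0.22 and 0.81 ± 0.22), as was Usp39 (0.75 ± 0.24), 3 of 21 in that list with 0 lower. Of the U1, U2 and Sm proteins, Snrnp70 was lower (-0.70 ± 0.23) and the helicase Dhx15 higher (0.51 ± 0.18). Dhx8 and Aqr of the catalytic core were higher (0.51 ± 0.13 and 0.77 ± 0.27), 2 of 15.

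Of the speckle and exon junction proteins, Magoh, a core subunit of the junction complex, was lower (-1.10 ± 0.19), and the kinases Cdk12 and Cdk13 were higher (0.85 ± 0.28 and 0.63 ± 0.23). Of the regulators of exon choice, Mbnl3 was higher (2.07 ± 0.33), with Rbmx (-1.33 ± 0.26) and Tial1 (-0.63 ± 0.18) lower, 2 of 25 in each direction. These shares are near or below those of all genes. The medians of these 5 lists lay between -0.11 and 0.19, against -0.54 for the 11 SR proteins.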

How the data were processed

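Raw read counts per gene were deposited by the authors as 1 table for each of the 26 libraries of polyadenylated RNA. The submitters' processing notes name mm9 as the build and HTSeq, STAR, DESeq2, FastQC and CASAVA as tools, with no version, role, annotation or strand setting. Lines for reads outside genes (8.34 to 24.5% of gene reads), ambiguous reads (3.90 to 8.70%) and reads with several alignments (21.2 to 44.0%) entered neither the library sizes nor any test.

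Versioned Ensembl IDs were matched to GENCODE M21 symbols (32620 matched, 4690 did not), and exon lengths and overlaps come from that annotation on GRCm38, another build than the authors'. Organoids (17126 genes), tumors (17354 genes) and both together (18695 genes) were each fitted with edgeR 4.0.16 in R 4.3.3, by its quasi-likelihood test with TMM factors. Low genes were removed by filterByExpr (minimum count 10, minimum total 15). Benjamini-Hochberg adjustment ran over all genes of a fit, with a threshold of 0.05. A standard error is the estimate over the root of its F statistic, and 95% intervals were built on it. CPM values, counts over the scaled library size, use 1 TMM scaling over all 26 libraries. Near-identical copies (at least 100 coding bases at 98% identity) were sought with blastn.

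The members and lists were chosen with earlier results of these data known. Named genes follow a rule: Son, Srrm2, Srsf1, Srsf2 and Hnrnpa1 always, up to 4 called members per direction by smallest p (or the 2 with the smallest p), and the highest and lowest member of each role. The other members named, among them those without overlap between sample types and those that follow the replicate number, were chosen after their values were seen. In organoids, 24 of 24 pairs of libraries with the same replicate number correlated above 0.1 (0.469 to 0.934, deviations from group means), so that the numbers pair them, and values with the number as a block are given where they change a call. In tumors 2 of 9 pairs did. No libraries of 1 group were alike within sampling noise (chi-square per degree of freedom at least 14.0). The lowest values were 14.0 for organoid scASO replicates 1 and 2 and 40.2 for organoid ASO2 replicates 1 and 2. Each pair holds a library that goes against its label, and the other organoid pairs of 1 group ranged from 99.8 to 413. What sets these pairs apart was not tested. The fit was also run on simulated counts that held known changes but no effect of the replicate number, so that run does not bear on this effect. Alternatives were DESeq2 1.42.0, RLE size factors, no filter, the groups compared alone, each library left out, both libraries that go against their labels left out, and the organoids numbered 4 left out. ASO1 or ASO2 libraries in place of scASO between organoids and tumors (for ASO2 also without the doubted libraries), and the overlap of sample types without the organoid libraries that go against their labels, were added after seeing the data.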

Additional observations from a re-analysis of the deposited data

Results flagged for a closer look

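In groups of 4 libraries, 7 of 115 sets of values (22 named members and the summed level of all members) had an extreme library whose gap to the nearest of the other 3 was too large a share of the group's range by Dixon's test at the 95% level. Chance flags about 1 in 20 such groups. In organoids given ASO2, replicate 3 had 298 CPM of Srsf5 (the other 3 had 433 to 443 CPM), 157 CPM of Tra2a (the others 121 to 125 CPM) and 247 CPM of Hnrnpc (the others 296 to 306 CPM). Replicate 4 of that group had 38.5 CPM of Sf3b6, against 48.1 to 50.3 CPM. In organoids given ASO1, replicate 4 had 242 CPM of Hnrnpab (the others 268 to 273 CPM) and replicate 1 had 19.4 CPM of Srsf4 (the others 20.9 to 21.2 CPM). In tumors given ASO2, Hnrnpr had 80.4 CPM in replicate 1 and 88.0 to 88.7 CPM in the others, and that tumor is the one with muscle and adipocyte markers.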

How the results depend on the processing

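The count of 0 called members held for ASO against scASO in tumors and organoids, for scASO against Mock and for the interaction under every alternative run. Against Mock it became 6 with the replicate block and without both libraries that go against their labels. The block with all libraries changed no other call. In tumors, where the numbers pair nothing, the block also left 0 members called. Between scASO organoids and scASO tumors the count of 9, with 23.5% of all genes called, became 5 (13.1%) without a filter on low counts, 3 (16.6%) without both doubted libraries, 2 to 11 on leaving out 1 library each, 14 (24.5%) with ASO1 libraries and 21 (40.4%) with ASO2 libraries. With ASO2 libraries it was 18 without both doubted libraries and 18 without tumor ASO2 replicate 1. It was 2 without tumor scASO replicate 2 or 3, 3 without tumor scASO replicate 1, 4 without the organoid library labelled scASO replicate 2 and 5 without organoid scASO replicate 1. The cause was not tested.

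Signs turned for the estimates given here, none of them called. With the replicate block, Son was at 0.11 for ASO2 in tumors and Srrm2 at 0.019 for scASO against Mock. With the block and without both libraries, Srrm2 was at -0.065 for both ASOs, -0.062 for ASO1 and -0.068 for ASO2 against scASO and at 0.12 for scASO against Mock; Srsf2 was at 0.0001 and Hnrnpa1 at -0.032 for ASO1, Hnrnpc at -0.019 and Rbm39 at -0.12 for ASO2, and Son at 0.035 for both ASOs against Mock. Without both libraries, Rbm39 was at -0.016 for ASO2. Without the organoids numbered 4, Hnrnpa1, organoids ASO1 vs scASO, was at -0.0034 and Srsf2 at 0.017 for scASO against Mock. With ASO2 libraries in place of scASO, Son was at -0.065 between organoids and tumors, and at -0.090 when both doubted libraries were also left out. On leaving out 1 library each, Hnrnpa1 ranged from -0.048 to 0.062 (organoids, ASO1), -0.091 to 0.013 (ASO2), -0.067 to 0.015 (both ASOs) and -0.010 to 0.11 (both against Mock). Son ranged from -0.15 to 0.15 (both against Mock), and in tumors from -0.017 to 0.13 (ASO1), -0.10 to 0.087 (ASO2) and -0.028 to 0.087 (both). Srrm2 in organoids ranged from -0.12 to 0.22 (ASO1), -0.014 to 0.35 (ASO2), -0.050 to 0.21 (both), -0.12 to 0.29 (both against Mock) and -0.22 to 0.19 (scASO against Mock). Srsf1 ranged from -0.18 to 0.0054 between organoids and tumors, Srsf2 from -0.13 to 0.070 for scASO against Mock, and U2af1 from -0.0060 to 0.32 for ASO1. The shallowest library, tumor ASO2 replicate 4, held 9939520 reads in genes.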
